A study of Mus musculus with 16 samples.

Results

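The genes described here are the receptors for the Fc part of immunoglobulin G in mouse myeloid cells together with their signalling chain and the neonatal Fc receptor. They were taken as the rows of the count files whose symbol was Fcgr1, Fcgr3, Fcgr4, Fcgr2b, Fcer1g or Fcgrt, which gave 6 of 24421 genes, and all 6 passed the filter on low counts in each comparison. The counts came from 16 libraries of 3′ mRNA tags (QuantSeq FWD) prepared from myeloid-derived suppressor cells (MDSCs), which are immature myeloid cells that build up in tumour-bearing hosts. Monocytic M-MDSCs (CD11b high, Ly6C+, Ly6G-) and granulocytic G-MDSCs (CD11b high, Ly6C-, Ly6G+) were isolated by sorting of spleen cells from 4 WT and 4 Nlrp3-/- animals, all of C57BL/6 background and all carrying a subcutaneous B16.F10 melanoma, a transplanted mouse melanoma line. The Nlrp3-/- mice lacked the inflammasome sensor NLRP3 in every cell. An EGFP cassette with its own polyadenylation signal was inserted at the start codon. A change in MDSCs could thus have come from other cells of the host. The paper bought C57BL/6J mice from the Jackson Laboratory and received the Nlrp3-/- strain from another laboratory. It also reported reduced B16.F10 growth in Nlrp3-/- mice. Source of the mice and tumour size cannot be told apart from genotype here. The labels give neither the age nor the sex of the sequenced animals. Each library was 1 mouse, the labels give the M-MDSC and G-MDSC libraries of a replicate number the same spleen name, and mice are numbered 1 to 4 within each genotype.

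Fc gamma receptors bind antibody that coats a particle or cell and turn that binding into uptake, killing or restraint. In the mouse Fcgr1, Fcgr3 and Fcgr4 encode the activating receptors FcγRI, FcγRIII and FcγRIV, which bind ligand through their own chain and signal through the immunoreceptor activation motif of the common gamma chain, the product of Fcer1g, whereas Fcgr2b encodes the only inhibitory member, FcγRIIB, whose own cytoplasmic motif recruits the lipid phosphatase SHIP1. Fcgrt encodes the heavy chain of FcRn, a relative of MHC class I that pairs with beta-2 microglobulin inside the cell, returns internalised immunoglobulin G and albumin to the surface and sorts immune complexes.

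Library totals ran from 2295967 to 6079866 counts, and a count of 3, used as the lowest level that a library could show, corresponded to 0.348 to 1.17 CPM (the count relative to the scaled library total). Levels below are CPM after TMM scaling over the 16 libraries, which makes the bulk of the genes equal between libraries. Nlrp3 itself stood at 65.5 ± 22.5 CPM in WT M-MDSCs and 0.979 ± 0.610 in Nlrp3-/- M-MDSCs, and at 296 ± 34.2 and 9.37 ± 3.76 in the G-MDSCs of the corresponding mice (SD, n = 4 each), so the libraries followed their genotype labels. Monocyte markers summed to between 8179 and 12093 CPM in the M-MDSC libraries and to between 938 and 1577 in the G-MDSC libraries, and 9 granulocyte markers, which leave out Ly6g because the files have no such row, summed to between 113733 and 174538 CPM in G-MDSCs. M-MDSC WT replicate 2 stood apart with 8709 CPM of granulocyte markers against 1413 to 2532 in the other M-MDSC libraries. The log2 differences of the 6 genes in the comparisons of 8 libraries that it entered are also given without it. Markers of splenic macrophages and dendritic cells differed by genotype: 7 of 11 tested were called higher in Nlrp3-/- M-MDSCs and 8 of 9 in Nlrp3-/- G-MDSCs, against 3.51% and 4.7% of all tested genes. Of other lists, 2 of 8 granulocyte, 1 of 8 NK and T cell and 1 of 2 basophil, mast cell and eosinophil markers were called higher in M-MDSCs. In G-MDSCs 1 of 8 monocyte, 1 of 7 NK and T cell and 1 of 6 platelet and erythroid markers were. Called lower were 1 of 10 monocyte and 1 of 4 B cell markers in M-MDSCs, and 1 of 9 granulocyte and 1 of 5 B cell markers in G-MDSCs. In bulk RNA of sorted cells, fewer cells of a type and less RNA per cell cannot be told apart.

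In the GRCm38.p6 assembly, Fcgr2b (chr1:170960558-170976071, minus strand), Fcgr4 (chr1:171018926-171029761, plus strand), Fcgr3 (chr1:171051169-171065915, minus strand) and Fcer1g (chr1:171229572-171234349, minus strand) lay in this order in 1 stretch of chromosome 1. Fcgr1 (chr3:96282909-96293969) and Fcgrt (chr7:45092993-45103822), both on the minus strand, lay on other chromosomes. The coding regions of Fcgr2b and Fcgr3 are known to be alike, and 3′ tags are read at the transcript ends. The last 500 bases of the protein-coding GENCODE M21 transcripts held 0 identical stretches of 30 bases for any pair of the 6 genes. Whether reads with mismatches were assigned to the wrong gene was not tested. The GENCODE M21 model of Fcgr2b ends 1941 bases beyond the RefSeq model, and tags that fell there would have been missed by a count against the shorter model. The 3 upstream regions printed next belong to Fcgr1, which was higher in M-MDSCs, Fcgr4, which was higher in G-MDSCs, and Fcgrt, the gene that differed between genotypes in both subsets. Each is the 250 bases before the RefSeq start of the gene, read 5′ to 3′ on the strand of the gene, for Fcgr1 chr3:96293970-96294219, for Fcgr4 chr1:171018676-171018925 and for Fcgrt chr7:45103823-45104072.
Fcgr1: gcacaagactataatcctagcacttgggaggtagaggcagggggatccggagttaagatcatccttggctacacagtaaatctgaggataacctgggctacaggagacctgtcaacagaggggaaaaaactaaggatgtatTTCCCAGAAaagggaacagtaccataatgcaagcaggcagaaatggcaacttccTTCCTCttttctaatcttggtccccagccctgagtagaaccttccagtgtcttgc
Fcgr4: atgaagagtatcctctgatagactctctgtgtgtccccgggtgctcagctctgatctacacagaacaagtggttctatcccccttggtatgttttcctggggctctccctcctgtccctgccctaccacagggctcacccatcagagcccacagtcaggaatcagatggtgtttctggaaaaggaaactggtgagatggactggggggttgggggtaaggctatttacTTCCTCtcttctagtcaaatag
Fcgrt: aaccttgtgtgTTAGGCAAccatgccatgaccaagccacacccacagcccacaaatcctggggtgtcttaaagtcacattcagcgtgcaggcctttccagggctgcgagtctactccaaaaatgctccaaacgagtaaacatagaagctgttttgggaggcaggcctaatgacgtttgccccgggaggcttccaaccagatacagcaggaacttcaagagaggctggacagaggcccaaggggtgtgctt
Capitals mark matches, on either strand, to 3 motifs: TTCNNNGAA (bound by STAT factors), GAGGAA (core of the site of the myeloid factor PU.1) and TTGCNNAA (bound by C/EBP factors). The capitals of Fcgr1 are a STAT motif that starts 109 bases before the gene and a PU.1 core that starts 55 bases before it, those of Fcgr4 are a PU.1 core that starts 22 bases before the gene, and those of Fcgrt are a C/EBP motif that starts 239 bases before it. Among 32817 mouse windows of this kind, 7.01% held the STAT motif, 23.3% the PU.1 core and 9.57% the C/EBP motif. A match in these letters is a description of the sequence only. The windows of Fcgr2b and Fcer1g held none of the 3 motifs, and those of Fcgr3 held a PU.1 core and a C/EBP motif.

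To examine how the subsets differ in the receptors, G-MDSCs were compared with M-MDSCs within each genotype. Fcgr1 and Fcgr2b were lower and Fcgr3 and Fcgr4 higher in G-MDSCs of both genotypes, Fcgrt was lower in both, and Fcer1g was called higher in Nlrp3-/- mice and, in WT mice, under some alternatives given with its values. The genotype comparisons further on use the same libraries, so their values are set side by side with these and not counted again. A gene was called when its Benjamini-Hochberg adjusted p over all tested genes in the edgeR quasi-likelihood test was under 0.05 and its fold change above 1.5. In WT mice 2 of the 6 genes were called higher in G-MDSCs, where 26.3% of all tested genes were, and 3 of 6 were called lower, where 27.1% were. In Nlrp3-/- mice 3 of 6 were called higher, against 23.7% of all tested genes, and 3 lower, against 27.4%. The values of the subsets did not overlap for 5 of 6 genes in WT mice, against 51.9% of all genes, and for 5 of 6 in Nlrp3-/- mice, against 50.2%. Called in either direction were 53.3% of all tested genes in WT and 51% in Nlrp3-/- mice, so a difference between the subsets was common among genes in general.

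Fcgr1, the high-affinity receptor, was higher in M-MDSCs. Its levels in WT M-MDSCs were 110, 43.4, 60.9 and 79.4 CPM in mice 1 to 4, and in Nlrp3-/- M-MDSCs 72.9, 78.7, 97.6 and 75.2 CPM. In G-MDSCs it was at 4.00, 0, 1.69 and 2.72 CPM in the WT mice and at 2.77, 3.21, 3.72 and 7.07 CPM in the Nlrp3-/- mice. Every M-MDSC library lay above every G-MDSC library, and the G-MDSC values rested on 0 to 12 counts in WT and 12 to 27 counts in Nlrp3-/- libraries, so that the 0 of replicate 2 allows a level of up to 1.01 CPM. The log2 difference of G-MDSCs from M-MDSCs was -5.13 (SE 0.51, edgeR adjusted p = 5.01e-06) in WT and -4.39 (SE 0.28, edgeR adjusted p = 1.41e-08) in Nlrp3-/- mice, and in WT mice it was -5.38 without M-MDSC WT replicate 2. The order of the means was Nlrp3-/- M-MDSCs, WT M-MDSCs, Nlrp3-/- G-MDSCs and WT G-MDSCs, with neighbours of the same subset within their spread.

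Fcgr3, the low-affinity activating receptor of monocytes and granulocytes, gave the most tags of the 4 receptor genes in every library. It stood at 383, 285, 324 and 314 CPM in WT M-MDSCs, at 327, 366, 382 and 352 in Nlrp3-/- M-MDSCs, at 865, 633, 744 and 830 in WT G-MDSCs and at 848, 927, 796 and 952 in Nlrp3-/- G-MDSCs. All G-MDSC libraries were above all M-MDSC libraries, while the genotypes overlapped within each subset. The fold between subsets was 2.35 in WT mice (log2 difference 1.24, SE 0.17, edgeR adjusted p = 5.73e-05) and 2.28 in Nlrp3-/- mice (log2 difference 1.19, SE 0.14, edgeR adjusted p = 6.46e-06). The size of this difference depended on the scaling: with library size only it was 0.49 and 0.47 on the log2 scale, below the fold minimum in both genotypes, where the median over all genes was -0.79 and -0.83 in place of -0.05 and -0.12. Without M-MDSC WT replicate 2 the difference in WT mice was 1.11.

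Fcgr4, an activating receptor that binds IgG2 subclasses with intermediate affinity, was the receptor gene with the largest difference in favour of G-MDSCs. In G-MDSCs it measured 327, 245, 230 and 194 CPM in WT mice and 321, 302, 292 and 315 CPM in Nlrp3-/- mice. In M-MDSCs it measured 80.3, 44.2, 20.1 and 16.1 CPM in WT mice and 25.1, 37.6, 33.6 and 32.6 CPM in Nlrp3-/- mice. The WT M-MDSCs thus spread widely, with a coefficient of variation of 73.4% against 16.2% in Nlrp3-/- M-MDSCs, and WT mouse 1 was the highest WT mouse in both subsets. The log2 difference between subsets was 2.62 (SE 0.42, edgeR adjusted p = 0.000228) in WT and 3.14 (SE 0.17, edgeR adjusted p = 2.71e-09) in Nlrp3-/- mice, and 2.59 in WT mice without M-MDSC WT replicate 2. Granulocyte markers summed to 1706 CPM in M-MDSC WT replicate 1, the library with the high value, and their part in it was not tested.

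Fcgr2b, the inhibitory receptor, was higher in M-MDSCs and varied widely between mice. Its levels were 28.9, 81.1, 57.2 and 56.4 CPM in WT and 105, 35.6, 18.6 and 76.7 CPM in Nlrp3-/- M-MDSCs, against 2.00, 14.2, 11.6 and 18.3 CPM in WT and 17.3, 19.97, 14.1 and 16.8 CPM in Nlrp3-/- G-MDSCs. In WT mice the subsets did not overlap, whereas in Nlrp3-/- mice M-MDSC replicate 3 lay within the range of the G-MDSCs. G-MDSCs differed from M-MDSCs by -2.29 on the log2 scale (SE 0.46, edgeR adjusted p = 0.00116) in WT mice, by -2.10 there without M-MDSC WT replicate 2, and by -1.93 (SE 0.43, edgeR adjusted p = 0.00163) in Nlrp3-/- mice. FcγRIIB is also a receptor of B cells, and 6 B cell markers summed to 78.7 to 152 CPM in M-MDSCs and to 210 to 314 CPM in G-MDSCs. Their part in the level of Fcgr2b was not tested.

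Fcer1g, the shared signalling chain, was the most abundant of the 6 genes by tags and the one that differed least between subsets. In WT mice it measured 1465, 999, 1317 and 1134 CPM in M-MDSCs and 1789, 929, 2189 and 1551 CPM in G-MDSCs, and in Nlrp3-/- mice 1494, 1216, 1687 and 1668 CPM in M-MDSCs and 2249, 2445, 2439 and 2903 CPM in G-MDSCs. The subsets overlapped in WT mice and did not in Nlrp3-/- mice. The log2 difference was 0.39 (SE 0.25, edgeR adjusted p = 0.190) in WT mice and 0.61 (SE 0.16, edgeR adjusted p = 0.00486) in Nlrp3-/- mice, a fold of 1.52 that just passed the minimum. Its direction was set by the scaling, since with library size only the difference was -0.35 in WT and -0.11 in Nlrp3-/- mice. In WT mice the difference passed the thresholds without G-MDSC WT replicate 2, the lowest library, at 0.60 (edgeR adjusted p = 0.0252), with the correction for GC content and transcript length at 0.64 (edgeR adjusted p = 0.0332) and with the mouse as a block added to it at 0.60 (edgeR adjusted p = 0.00429), and it was 0.24 without M-MDSC WT replicate 2. The call in Nlrp3-/- mice was lost without M-MDSC Nlrp3-/- replicate 2 (0.50) or G-MDSC Nlrp3-/- replicate 4 (0.56). Of the 10 processing alternatives, 8 kept this call, 1 lost it and 1, library size only, reversed the direction.

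**Figure D1:**
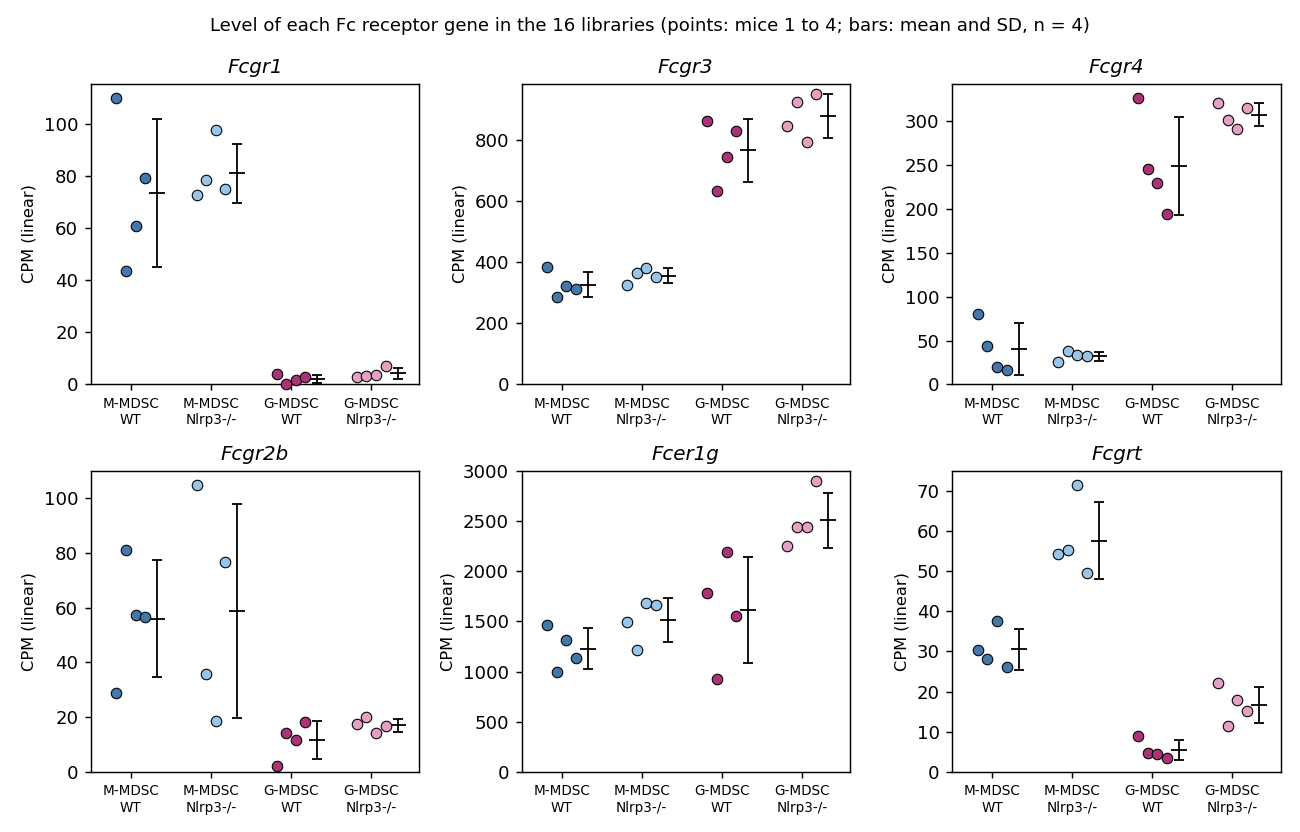
CPM of each of the 6 Fc receptor genes (linear axis from 0, 1 panel a gene) in the 4 groups, with 1 point a library, mice 1 to 4 from left to right, and the mean with its SD (n = 4) beside them. Fcgr1 lies at or under 7.07 CPM in every G-MDSC library, Fcgr3 and Fcgr4 are higher in G-MDSCs, and the Fcgrt points of Nlrp3-/- libraries lie above those of WT libraries in both subsets.

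Fcgrt was the only member whose level changed with genotype in the test, and it was raised in Nlrp3-/- cells of both subsets. In M-MDSCs it measured 30.4, 28.1, 37.6 and 26.0 CPM in WT mice and 54.2, 55.2, 71.5 and 49.5 CPM in Nlrp3-/- mice. In G-MDSCs it measured 9.0, 4.73, 4.36 and 3.50 CPM in WT mice, on 9 to 27 counts, and 22.1, 11.3, 18.0 and 15.2 CPM in Nlrp3-/- mice, on 46 to 96 counts. The lowest Nlrp3-/- library was above the highest WT library in each subset. The genotypes did not overlap, in either direction, for 19.3% of all tested genes in M-MDSCs and 24.4% in G-MDSCs. Both subsets came from the same mice, so they are not independent of each other. The rise was 1.91-fold in M-MDSCs (log2 0.93, SE 0.18, edgeR adjusted p = 0.00832) and 2.91-fold in G-MDSCs (log2 1.54, SE 0.36, edgeR adjusted p = 0.00953), folds at the percentiles 97.3 and 99.4 of all tested genes. Leaving out each library in turn kept the call in all 16 fits, with log2 differences of 0.83 to 1.05 in M-MDSCs and 1.38 to 1.88 in G-MDSCs, and it was 0.90 (edgeR adjusted p = 0.0298) without M-MDSC WT replicate 2. Correcting for GC content and transcript length lowered it to 0.65 in M-MDSCs (edgeR adjusted p = 0.0402) and 1.20 in G-MDSCs (edgeR adjusted p = 0.0451).

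Macrophages and dendritic cells are known to express Fcgrt, and most of their tested markers were also called higher in Nlrp3-/- libraries (7 of 11 in M-MDSCs, 8 of 9 in G-MDSCs). The 14 markers summed to 462 to 590 CPM in WT and 721 to 1148 CPM in Nlrp3-/- M-MDSCs, and to 264 to 571 CPM in WT and 1014 to 1441 CPM in Nlrp3-/- G-MDSCs. H2-Aa was the largest single part of these sums, with means of 326 and 576 CPM in WT and Nlrp3-/- M-MDSCs and 258 and 590 CPM in WT and Nlrp3-/- G-MDSCs. The rise was not shared by all markers: Flt3, a dendritic cell gene, had means of 17.4 CPM in WT and 17.9 CPM in Nlrp3-/- M-MDSCs. C1qa, a complement subunit made by macrophages, had a mean of 7.10 CPM in WT and 38.1 CPM in Nlrp3-/- M-MDSCs, and 28.6 and 90.1 CPM in WT and Nlrp3-/- G-MDSCs. Vcam1, of the same list, had means of 16.05 CPM in WT and 60.5 CPM in Nlrp3-/- M-MDSCs, and 36.97 and 150.9 CPM in WT and Nlrp3-/- G-MDSCs. For Cd5l the means were 5.51 and 18.3 CPM in WT and Nlrp3-/- M-MDSCs, and 13.9 and 43.5 CPM in WT and Nlrp3-/- G-MDSCs. Of the tested markers of this list, 0 were called lower in either subset. Too low to compare were the efferocytosis receptor Mertk and the dendritic cell receptor Xcr1, at 0 to 4 counts in every library. Mertk was at 0 in all WT M-MDSC libraries and Xcr1 at 0 in all Nlrp3-/- G-MDSC libraries. Other marker sums also separated the genotypes without overlap: those of NK and T cells in M-MDSCs (89.6 to 127 CPM in WT, 139 to 236 in Nlrp3-/- mice) and those of basophils, mast cells and eosinophils in G-MDSCs (27.7 to 52.9 CPM in WT, 59.4 to 68.6 in Nlrp3-/- mice). The part of these markers in the rise of Fcgrt was not tested. Between subsets Fcgrt was lower in G-MDSCs, by -2.49 on the log2 scale in WT mice (SE 0.29, edgeR adjusted p = 2.01e-05) and by -1.89 in Nlrp3-/- mice (SE 0.23, edgeR adjusted p = 1.12e-05). Without M-MDSC WT replicate 2 the difference in WT mice was -2.60. The order of Fcgrt means was Nlrp3-/- M-MDSCs at 57.6 ± 9.60 CPM, WT M-MDSCs at 30.5 ± 5.04, Nlrp3-/- G-MDSCs at 16.7 ± 4.56 and WT G-MDSCs at 5.40 ± 2.46 (SD, n = 4 each), with no overlap between any neighbours. B2m, its light chain, was chosen after its values were seen and showed log2 differences of 0.25 (SE 0.18, edgeR adjusted p = 0.363) in M-MDSCs and 0.04 (SE 0.18, edgeR adjusted p = 0.909) in G-MDSCs between the genotypes.

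The activating and inhibitory receptors did not pass the genotype test. In M-MDSCs 1 of the 6 genes was called higher in Nlrp3-/- mice, against 3.51% of 9986 tested genes, and 0 of 6 lower, against 7.1%, while the genotypes did not overlap for 1 of 6, against 19.3% of all genes. In G-MDSCs 1 of 6 was called higher, against 4.7% of 9273 genes, 0 of 6 lower, against 11.7%, and 2 of 6 did not overlap, against 24.4%. By unadjusted edgeR p under 0.05, 0 of the 6 were lower in either subset, and DESeq2 called 0 lower as well. Fcer1g was the second gene without overlap in G-MDSCs, where its lowest Nlrp3-/- library (2249 CPM) was above its highest WT library (2189 CPM), a log2 difference of 0.55 (SE 0.22, edgeR adjusted p = 0.0919). With 1 model over all 16 libraries that difference was 0.64 (edgeR adjusted p = 0.0423), and without G-MDSC WT replicate 3 it was 0.75 (edgeR adjusted p = 0.0263), both past the thresholds. In M-MDSCs the difference of Fcer1g was 0.33 (SE 0.18, edgeR adjusted p = 0.229).

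The ligand-binding chains had small or imprecise genotype differences. Fcgr3 differed by 0.15 (SE 0.14, edgeR adjusted p = 0.505) in M-MDSCs and 0.11 (SE 0.15, edgeR adjusted p = 0.645) in G-MDSCs on the log2 scale, the best bounded values of the group. Fcgr1 differed by 0.17 (SE 0.24, edgeR adjusted p = 0.681) in M-MDSCs, a value that became -0.01 without M-MDSC WT replicate 2, and by 0.91 (SE 0.70, edgeR adjusted p = 0.394) in G-MDSCs, where few counts stood behind it. Fcgr4 differed by -0.31 (SE 0.40, edgeR adjusted p = 0.643) in M-MDSCs, which became 0.28 without M-MDSC WT replicate 1, and by 0.22 (SE 0.16, edgeR adjusted p = 0.385) in G-MDSCs. Fcgr2b differed by 0.13 (SE 0.46, edgeR adjusted p = 0.886) in M-MDSCs and 0.48 (SE 0.44, edgeR adjusted p = 0.492) in G-MDSCs. For Fcgr1, Fcgr4 and Fcgr2b the standard errors were wide enough that differences near the fold minimum could not have been seen in at least 1 subset. Without M-MDSC WT replicate 2 the differences in M-MDSCs were 0.10 for Fcgr3, -0.26 for Fcgr4, 0.39 for Fcgr2b and 0.25 for Fcer1g.

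**Figure D2:**
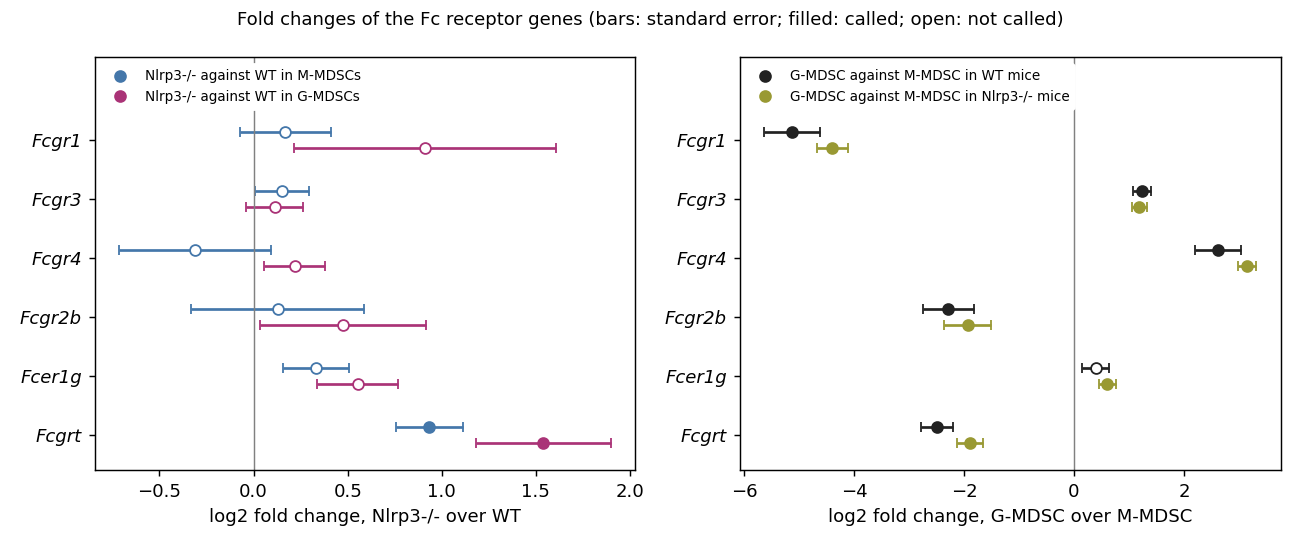
Log2 fold change of each gene with its standard error from the edgeR fits of 8 libraries, Nlrp3-/- over WT on the left and G-MDSC over M-MDSC on the right, with filled points for called genes. Fcgrt at 0.93 and 1.54 is the only filled gene on the left, and all points but Fcer1g in WT mice are filled on the right.

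Whether the genotype effect differed between the subsets was tested by the interaction over all 16 libraries, without the mouse as a block. It called 0 of the 6 genes, where 0.028% of 10696 genes (3 genes) were called, and 0 of 6 had an unadjusted edgeR p under 0.05, as was so with DESeq2, which called 0. The estimate was largest for Fcgr1 (0.85, SE 0.61) and for Fcgrt it was 0.71 (SE 0.37, edgeR adjusted p = 0.992). Over 9 processing alternatives, the mouse as a block among them, the Fcgrt estimate ran from 0.56 to 0.73 and was not called. The larger rise of Fcgrt in G-MDSCs than in M-MDSCs is therefore not shown by these libraries.

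The make-up of the receptor RNA was described as shares of the tags of Fcgr1, Fcgr3, Fcgr4 and Fcgr2b in each library. Such shares need no scaling between libraries. Tags of Fcgr2b missed beyond the shorter gene model would lower its share and raise those of the other receptor genes. Whether tags were missed was not tested. A QuantSeq transcript gives tags at its end whatever its length, so shares were not divided by length. Fcgr3 made up 66.0% ± 3.39 of these tags in WT M-MDSCs, 67.5% ± 4.69 in Nlrp3-/- M-MDSCs, 74.5% ± 3.78 in WT G-MDSCs and 72.8% ± 1.33 in Nlrp3-/- G-MDSCs (SD, n = 4 each). The remainder was divided among 3 genes in M-MDSCs and was nearly all Fcgr4 in G-MDSCs. Fcgr1 took 14.5% ± 3.95 and 15.3% ± 2.11 of the tags in WT and Nlrp3-/- M-MDSCs and 0.191% ± 0.144 and 0.343% ± 0.143 in G-MDSCs, whereas Fcgr4 took 7.72% ± 4.66 and 6.10% ± 1.04 in M-MDSCs and 24.2% ± 4.19 and 25.5% ± 1.44 in G-MDSCs. Without M-MDSC WT replicate 2, an alternative chosen after seeing the data, the mean shares in WT M-MDSCs were 67.0% for Fcgr3, 16.2% for Fcgr1, 7.04% for Fcgr4 and 9.76% for Fcgr2b (n = 3).

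Fcgr2b took 11.8% ± 5.36 and 11.1% ± 7.34 of the tags in WT and Nlrp3-/- M-MDSCs and 1.17% ± 0.711 and 1.41% ± 0.150 in G-MDSCs (SD, n = 4 each). Across M-MDSC libraries the share ran from 3.49% to 19.8%, well beyond counting error: the exact 95% intervals of those libraries were 2.81% to 4.28% and 18.6% to 21.0%. The lowest share of all was that of G-MDSC WT replicate 1, at 6 of 3594 tags or 0.167% (exact 95% interval 0.0613% to 0.363%), and the other G-MDSC libraries held 1.18% to 1.75%. Such intervals cover counting error only. Tags of the 3 activating receptors per tag of Fcgr2b therefore ranged from 4.05 to 27.6 in M-MDSCs and from 56.2 to 598 in G-MDSCs, without overlap between the subsets and with overlap between the genotypes. Fcer1g gave 2.52 to 3.63 tags per tag of an activating receptor in M-MDSCs and 1.06 to 2.28 in G-MDSCs. Its tags were thus fewer in relation to those of these 3 receptor genes in G-MDSCs, whatever the scaling. This is a ratio of RNA tags that leaves out the other receptors that use the chain, and protein was not measured.

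**Figure D3:**
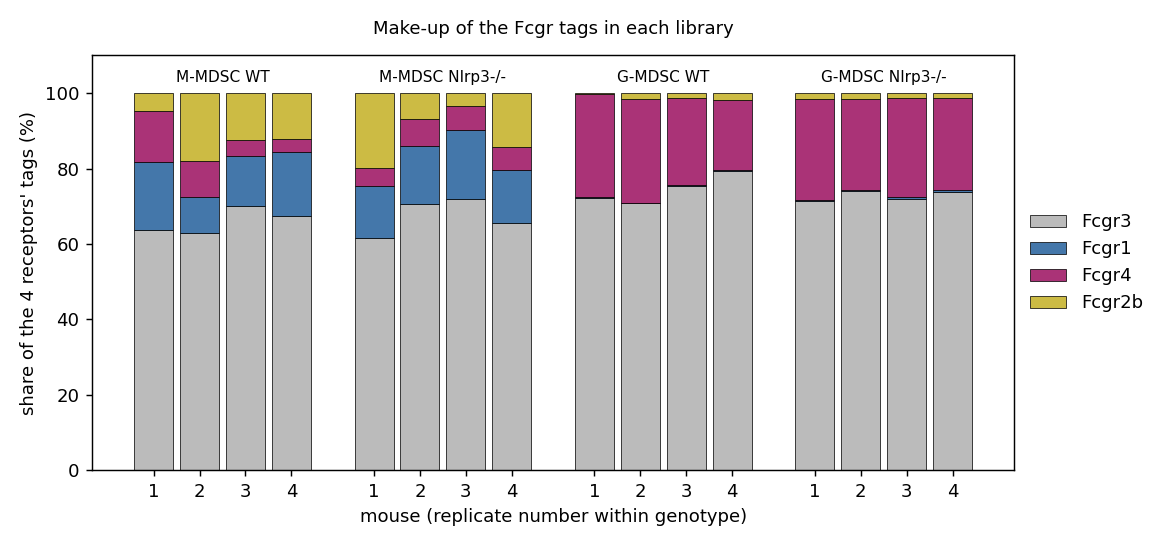
Share in percent of the tags of Fcgr3, Fcgr1, Fcgr4 and Fcgr2b within each of the 16 libraries, stacked to 100 percent, with mice numbered within genotype. Fcgr3 is the largest block in every library, Fcgr1 is visible in M-MDSCs only and at most 0.548% in G-MDSCs, and the Fcgr2b block ranges from 3.49% to 19.8% in M-MDSCs.

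The variation between mice was not the same for all members. In M-MDSCs of WT mouse 1 Fcgr2b was the lowest of the WT mice (28.9 CPM), and Fcgr1 (110 CPM), Fcgr3 (383 CPM) and Fcgr4 (80.3 CPM) were the highest. The same mouse had the lowest Fcgr2b (2.00 CPM) and the highest Fcgr3 (865 CPM), Fcgr4 (327 CPM) and Fcgrt (9.0 CPM) of the WT mice in its G-MDSCs. Among Nlrp3-/- mice, mouse 3 had the lowest Fcgr2b in both subsets (18.6 and 14.1 CPM), with the highest Fcgr1 (97.6 CPM), Fcgr3 (382 CPM) and Fcgrt (71.5 CPM) in M-MDSCs but the lowest Fcgr3 (796 CPM) in G-MDSCs. For Fcgr4 the WT mice took the same order in both subsets and the Nlrp3-/- mice did not. Nlrp3-/- mouse 1 had the lowest Fcgr4 of its genotype in M-MDSCs (25.1 CPM) and the highest in G-MDSCs (321 CPM). With 4 mice a genotype, such orders are too few to test. The source of these differences was not tested. By coefficient of variation in M-MDSCs the widest member was Fcgr4 in WT mice (73.4%) and Fcgr2b in Nlrp3-/- mice (66.4%).

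**Figure D4:**
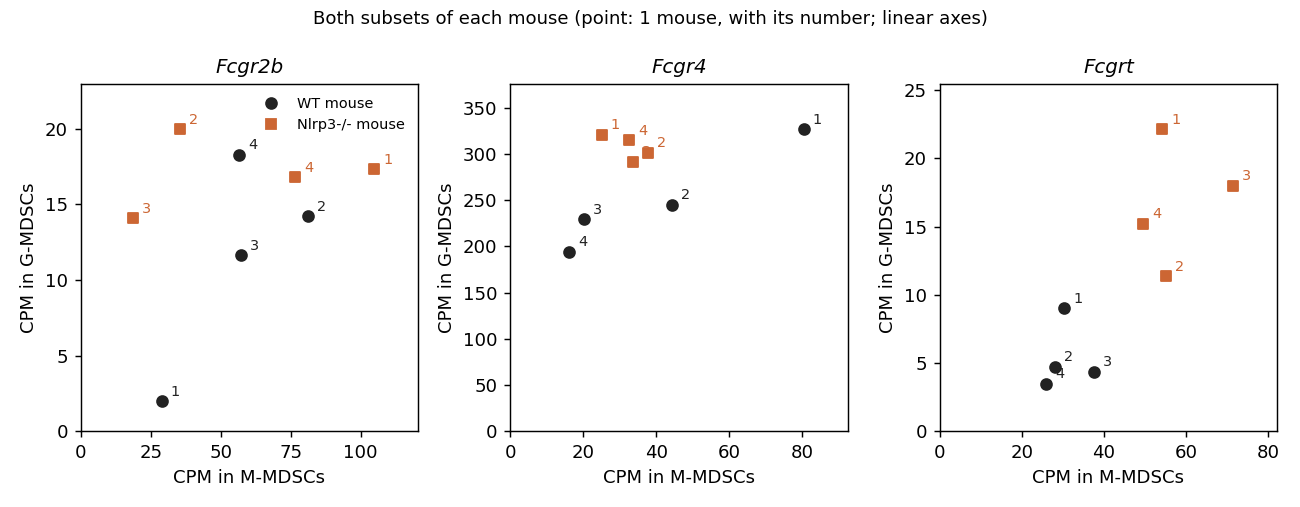
CPM of Fcgr2b, Fcgr4 and Fcgrt in the G-MDSCs (vertical axis) against the M-MDSCs (horizontal axis) of the same mouse, with 1 numbered point a mouse and linear axes from 0. WT mouse 1 is lowest for Fcgr2b among WT mice and highest for Fcgr4 on both axes. For Fcgr4, Nlrp3-/- mouse 1 is lowest among Nlrp3-/- mice on the horizontal axis and highest on the vertical axis. The 4 Nlrp3-/- mice lie above and to the right of the 4 WT mice for Fcgrt.

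Genes that carry the signal of these receptors were taken from lists of known pathway members and are described by counts and medians. Over all tested genes 10.6% were called in M-MDSCs and 16.4% in G-MDSCs in either direction. Of 37 tested genes of activating signalling, 2 were called higher and 3 lower in Nlrp3-/- M-MDSCs and 2 higher and 5 lower in Nlrp3-/- G-MDSCs, and the list medians were 0.08 and 0.13 on the log2 scale beside 0.07 and 0.03 over all tested genes. Vav3, a guanine nucleotide exchange factor, fell by 1.10 in M-MDSCs (SE 0.20, edgeR adjusted p = 0.00751) and by 1.52 in G-MDSCs (SE 0.21, edgeR adjusted p = 0.000313). Tec, a kinase related to Btk, fell by 1.73 in M-MDSCs (edgeR adjusted p = 0.0236) and fell by 2.11 in G-MDSCs (edgeR adjusted p = 0.00101), Sos1, a Ras exchange factor, fell by 1.35 in M-MDSCs (edgeR adjusted p = 0.00670), and Pik3r1, a regulatory subunit of PI3 kinase, fell by 0.83 in G-MDSCs (edgeR adjusted p = 0.00438). Lat2, an adaptor of myeloid and B cells, was higher in both subsets, from 218 ± 46.6 to 435 ± 119 CPM in M-MDSCs (edgeR adjusted p = 0.0127) and from 56.8 ± 24.6 to 112 ± 21.9 CPM in G-MDSCs (edgeR adjusted p = 0.0279; SD, n = 4 each). The kinase Limk1 was higher in M-MDSCs (0.86, edgeR adjusted p = 0.0436) and Pik3r5 in G-MDSCs (0.61, edgeR adjusted p = 0.0314). Those calls were weak: Lat2 in G-MDSCs, Limk1 and Pik3r5 each lost theirs in 6 of 8 fits that left out 1 library, and Tec in M-MDSCs in 3 of 8. With the correction for GC content and transcript length the calls of Limk1 in M-MDSCs and of Lat2, Pik3r5 and Pik3r1 in G-MDSCs were also lost, with Pik3r1 at -0.34 (edgeR adjusted p = 0.234). Without M-MDSC WT replicate 2 the M-MDSC calls of the list were 1 higher and 2 lower.

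Of the inhibitory list, 1 of 19 tested genes was called higher and 3 lower in Nlrp3-/- M-MDSCs, and 1 of 20 higher and 4 lower in Nlrp3-/- G-MDSCs, with list medians of 0.01 and 0.14 beside 0.07 and 0.03 over all genes. Ptprc, the receptor phosphatase CD45, which is also needed to activate Src kinases, fell from 1973 ± 354 to 990 ± 196 CPM in M-MDSCs (edgeR adjusted p = 0.00860) and from 4883 ± 338 to 2261 ± 190 CPM in G-MDSCs (edgeR adjusted p = 0.000149; SD, n = 4 each). The ubiquitin ligase Cbl fell by 1.02 on the log2 scale in M-MDSCs and fell by 1.21 in G-MDSCs, the phosphatase Ptpn11 fell by 0.88 in M-MDSCs and fell by 0.93 in G-MDSCs, and all 6 of these calls were kept in each fit that left out 1 library. With the correction for GC content and transcript length, Ptprc and Cbl in M-MDSCs stood at -0.57 and -0.60 and no longer passed. Dok1 was called higher in M-MDSCs (0.84, edgeR adjusted p = 0.0258) and Csk, which restrains Src kinases, in G-MDSCs (0.62, edgeR adjusted p = 0.0334), and each call was lost in 6 of 8 such fits and with that correction. Inpp5d, which encodes SHIP1 and was picked after its values were seen, differed by 0.01 (SE 0.14, edgeR adjusted p = 0.960) in M-MDSCs and -0.29 (SE 0.15, edgeR adjusted p = 0.191) in G-MDSCs.

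**Figure D5:**
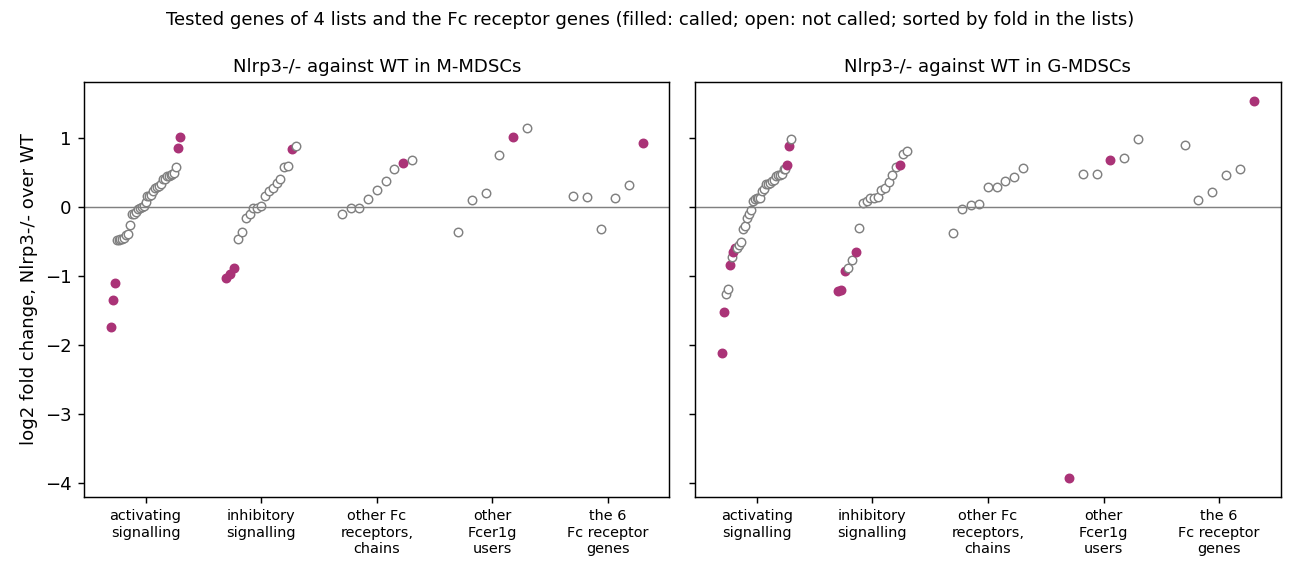
Log2 fold change (Nlrp3-/- over WT) of every tested gene of 4 lists, sorted by fold within a list, and of the 6 Fc receptor genes, in M-MDSCs on the left and G-MDSCs on the right, with filled points for called genes. In both panels the called genes of the signalling lists lie on both sides of 0, and Fcgrt is the filled point among the Fc receptor genes.

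Other receptors of the family and other users of the gamma chain were read against the same 10.6% and 16.4% of all genes called. Of 9 tested Fc receptors and partner chains, Hcst, the adaptor DAP10, was called higher in Nlrp3-/- M-MDSCs (0.64, SE 0.18, edgeR adjusted p = 0.0433), a call lost in 7 of 8 fits that left out 1 library and with the correction for GC content and transcript length, and 0 were called in G-MDSCs, where 3 had an unadjusted edgeR p under 0.05 with a higher level and DESeq2 called 1. Of 6 tested receptors that use Fcer1g, Clec4n, which encodes Dectin-2, was called higher in M-MDSCs (1.03, SE 0.26, edgeR adjusted p = 0.0264), and Clec4e, which encodes Mincle, in G-MDSCs (0.68, SE 0.18, edgeR adjusted p = 0.0189), calls lost in 3 and 2 of 8 such fits. Pira2 was called lower in G-MDSCs, with 20.8 ± 19.3 CPM in WT and 1.41 ± 1.01 in Nlrp3-/- mice (SD, n = 4 each), but it belongs to a multigene family whose copies share reads. Of the genes between and beside the Fc receptor genes on chromosome 1, 0 of 16 were called in M-MDSCs, where 2 each way had an unadjusted edgeR p under 0.05 and DESeq2 called 0, and 1 of 15 in G-MDSCs, the galactosyltransferase gene B4galt3 (0.62, SE 0.14, edgeR adjusted p = 0.00939). The call of B4galt3 was lost in 2 of 8 fits that left out 1 library.

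Between subsets, 26.3% of all tested genes were called higher and 27.1% lower in G-MDSCs of WT mice, and 23.7% and 27.4% in Nlrp3-/- mice. Of 37 activating genes 15 were higher and 2 lower in G-MDSCs of WT mice, and 15 and 3 in Nlrp3-/- mice, led by Rac2, the GTPase of the phagocyte oxidase, at 1827 ± 466 against 414 ± 89.1 CPM in WT mice (SD, n = 4 each), while Lat2 and Limk1 were lower. Of the inhibitory genes 7 were higher and 3 lower in each genotype, with Lilrb4a and Pag1 higher and Inppl1, which encodes SHIP2, and Cblb lower. With library size only, the WT counts became 7 and 12 for the activating list and 3 and 6 for the inhibitory list, where 12% of all genes were higher and 52% lower, and the Nlrp3-/- counts 4 and 11 and 4 and 9, where 11.4% were higher and 50% lower. Of 9 partner chains and receptors 7 were higher in WT G-MDSCs, among them Hcst and Fcmr, the receptor of immunoglobulin M, and 6 in Nlrp3-/- G-MDSCs, with Tyrobp at 4026 ± 413 against 1223 ± 169 CPM (SD, n = 4 each). Several receptors of this list, Fcmr among them, are also receptors of B cells. B cell markers summed to 210 to 314 CPM in G-MDSCs and 78.7 to 152 CPM in M-MDSCs, and their part in these calls was not tested. Of 6 receptors that use Fcer1g, 5 were higher and 1, Clec4b1, lower in WT G-MDSCs, and 4 and 1 in Nlrp3-/- G-MDSCs, with Clec4d at 1090 ± 256 against 29.6 ± 15.3 CPM in WT mice (SD, n = 4 each). The neighbours on chromosome 1 were divided, with 4 higher and 7 lower of 16 in WT mice and 6 and 6 in Nlrp3-/- mice, B4galt3 higher in both.

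The genes with patterns most like each member were found by Pearson's r of log2 CPM over the 16 libraries, which fall into the 2 subsets, so a high r mostly reflects the gap between subsets. For Fcgr1 they were Mrpl52, Tmem176a and Rhoq (r = 0.98 each), for Fcgr3 Ctsd, Slfn1 and Pbxip1 (0.99 each), for Fcgr4 Fam32a, Chst11 and Jdp2 (0.98 each). For Fcgr2b they were Id3, Proser1 and Dpp4 (r = 0.96, 0.96 and 0.95), for Fcer1g Prdx5, Cox8a and Cdc42 (0.96, 0.94 and 0.94), and for Fcgrt Acaa2, Rpl22 and Syngr2 (0.97, 0.96 and 0.96). These are descriptions with no test.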

How the data were processed

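The deposited files hold whole-number tag counts per gene symbol, 1 file a library. The authors sequenced QuantSeq 3′ FWD libraries, aligned the reads with HISAT2 2.1.0 to mm10 and made the counts with strand-specific HTSeq (version not given in the sources used here). Tags mark transcript ends, so values were not divided by length. Counts were tested with edgeR 4.0.16 in R 4.3.3 (filterByExpr, TMM, quasi-likelihood F test, Benjamini-Hochberg adjustment over all tested genes) on the 8 libraries of a comparison and on 16 for the interaction. The main fits did not pair the libraries of a mouse, and the mouse as a block was an alternative. Calls needed an adjusted p under 0.05 and a fold above 1.5, as in the study, and the standard error is the log2 fold change divided by the square root of F. DESeq2 1.42.0 was an alternative. Library totals ran from 2295967 to 6079866 counts, 24 pairs of replicate libraries included 0 identical ones, and exact 95% binomial intervals cover counting error only. The script was tested on simulated counts.

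Positions and upstream sequences are from RefSeq for GRCm38.p6, in which 6 of 6 genes matched. The motifs were picked after these sequences were seen. GC content and length were matched for 24054 of 24421 symbols. Per the labels each library is 1 mouse, and the M-MDSC and G-MDSC libraries of 1 number and genotype carry the same spleen name, so they were taken as the same mouse. Their deviations from the group means correlated by 0.274 on average (0.0983 to 0.447) in WT and 0.193 (0.00716 to 0.396) in Nlrp3-/- mice.

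All 6 genes are named in every comparison. From each pathway list up to 3 called genes each way with the smallest p are named per genotype comparison and up to 2 each way per subset comparison, plus the 3 genes most correlated with each member. The genes and lists were chosen with earlier results of these data known.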

Additional observations from a re-analysis of the deposited data

How the results depend on the processing

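Genotype calls of the 6 genes rested on Fcgrt, which kept its direction under each of the 10 alternatives and in each fit without 1 library in both subsets. It lost its call where the replicate block was joined with the GC content and length correction: the members called were then 0 in M-MDSCs (Fcgrt 0.66, edgeR adjusted p = 0.0981) and 0 in G-MDSCs (Fcgrt 1.24, edgeR adjusted p = 0.0723). With all 16 libraries in 1 model 2 members were called in G-MDSCs. Leaving out 1 library gave 1 to 1 members called in M-MDSCs, 1 to 2 in G-MDSCs and 5 to 6 between subsets in either genotype.

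WT and Nlrp3-/- mice share replicate numbers but are different animals, and their deviations correlated by -0.172 on average in M-MDSCs and -0.185 in G-MDSCs, with 0 of 4 libraries closest to their own number in each. The replicate block gave Fcgrt 0.94 (edgeR adjusted p = 0.0306) and 1.58 (edgeR adjusted p = 0.0203), and turned Fcgr2b in M-MDSCs to -0.12. It moved the calls over all genes from 351 higher and 709 lower to 67 and 358 in M-MDSCs and from 436 and 1086 to 199 and 786 in G-MDSCs. Of the named list genes called by genotype, the block ended 5 of 11 calls in M-MDSCs and 3 of 12 in G-MDSCs, and the block with the GC content and length correction ended 11 of 11 and 8 of 12. Between subsets, where it pairs the mice, it changed no call of a member. With the GC content and length correction the calls over all genes were 282 and 367 in M-MDSCs and 409 and 550 in G-MDSCs, and with the block added 15 and 26 and 121 and 270.

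With library size only the calls were 684 higher and 569 lower in M-MDSCs, 793 and 854 in G-MDSCs, 1166 and 5061 between subsets in WT mice against 2557 and 2636 with TMM, and 1146 and 5034 in Nlrp3-/- mice against 2383 and 2758. The difference of Fcer1g between subsets was then -0.35 in WT and -0.11 in Nlrp3-/- mice. In the interaction, Fcgr3 (0.07) was -0.00359 with the DESeq2 Wald test, -0.00370 with DESeq2 size factors, -0.020 with library size only, -0.054 with the GC content and length correction, -0.059 with the block added, and -0.13 to 0.13 without 1 library. Without 1 library the M-MDSC genotype differences ran from -0.014 to 0.45 for Fcgr1, from -0.56 to 0.28 for Fcgr4 and from -0.37 to 0.43 for Fcgr2b, whose sign therefore rested on single mice. The calls over all genes in the interaction were 3, against 12 with the edgeR likelihood ratio test, 8 with DESeq2 and 5 with no low count filter. Fcgr1 in G-MDSCs, with 0 to 27 counts a library, is the value most limited by depth. The causes of these changes were not tested.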
